A study of Mus musculus with 18 samples.

Results

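NADPH oxidases are membrane enzymes that pass electrons from NADPH to oxygen and so make superoxide or hydrogen peroxide. The genes described here are 6 subunits of these enzymes, Cybb, Cyba, Ncf1, Ncf4, Rac2 and Nox4, taken by name as the parts of the phagocyte oxidase and the tubular oxidase Nox4. They are 6 of the 32285 genes counted, and all 6 passed the filter on low counts that 16034 genes passed. Counts came from 18 RNA-seq libraries of microdissected kidney tissue, with 2 libraries from each of 3 kidneys in each of 3 region types: non-cystic tissue, and cystic tissue labelled as low or as high in F4/80. F4/80, the product of Adgre1, sits on the surface of macrophages.

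Every group carried the same genotype and treatment. The iKspCre-Pkd1del mice were male C57BL/6 with a kidney-specific Cre that tamoxifen switches on and with loxP sites around exons 2 to 11 of Pkd1, the gene of polycystin-1. Tamoxifen was given by mouth at 12.5 mg/kg on postnatal days 18 and 19, and kidneys were taken at a mild cystic stage seen by MRI, so the non-cystic regions also come from Pkd1-deleted kidneys and no library comes from a mouse without the deletion. The labelled age, which has no unit, is 269 for kidneys 1 and 3 and 297 for kidney 2, and the labels do not say whether the kidneys came from separate mice. The p-values below rest in part on how consistent the region differences were across these 3 kidneys. The level of each kidney was taken out as a block, which left 4 residual degrees of freedom. The spread of each gene was also drawn toward that of all tested genes, so the p-values do not measure these kidneys alone.

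The phagocyte oxidase is assembled on demand. Its membrane core is a pair of proteins, the electron-carrying gp91phox (Cybb) and its partner p22phox (Cyba), and the cytosolic subunits such as p47phox (Ncf1) and p40phox (Ncf4) join it together with the small GTPase Rac2 when the cell is stimulated. NOX4 (Nox4) also pairs with p22phox but needs none of the cytosolic subunits, releases mainly hydrogen peroxide, and was first described as a renal oxidase abundant in tubular epithelium. Cyba is therefore the subunit that both enzymes share.

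On GRCm38, Cybb lies at chrX:9435252-9487771 on the minus strand, Cyba at chr8:122424776-122432930 (minus), Ncf1 at chr5:134220053-134229625 (minus), Ncf4 at chr15:78244801-78262580 (plus), Rac2 at chr15:78559167-78572783 (minus) and Nox4 at chr7:87246096-87398710 (plus), all protein-coding. Ncf1 shares exon sequence with Gtf2ird2 on the other strand, and the library kit does not mark strand, so reads of the shared stretch cannot be assigned. Gtf2ird2 itself was counted at 2.63 ± 0.803 CPM in the non-cystic, 2.51 ± 0.685 in the F4/80-low and 3.07 ± 0.807 in the F4/80-high group (CPM is the count scaled to a common library size; mean ± SD, n = 3 kidneys), a narrower span than that of Ncf1 given below.

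The stretches just before the RefSeq starts of both catalytic genes, of their shared partner and of Ncf1 are shown because these genes move in opposite directions between regions. RefSeq windows were found for 4 of the 6 genes (Cybb, Cyba, Ncf1 and Nox4). Each line gives the 250 bases before the start, 5′ to 3′ on the gene's strand (GRCm38.p6), with CG dinucleotides in capitals.
Cybb, chrX:9469325-9469574: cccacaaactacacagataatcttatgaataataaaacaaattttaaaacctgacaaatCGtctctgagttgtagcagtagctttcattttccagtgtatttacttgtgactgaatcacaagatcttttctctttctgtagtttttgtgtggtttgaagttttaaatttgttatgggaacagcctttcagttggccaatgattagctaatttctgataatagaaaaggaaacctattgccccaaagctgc
Cyba, chr8:122432941-122433190: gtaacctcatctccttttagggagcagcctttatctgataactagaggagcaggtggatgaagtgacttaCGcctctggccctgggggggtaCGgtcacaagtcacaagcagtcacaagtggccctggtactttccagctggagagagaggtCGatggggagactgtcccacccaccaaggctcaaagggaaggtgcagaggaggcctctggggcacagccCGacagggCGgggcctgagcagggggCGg
Ncf1, chr5:134229626-134229875: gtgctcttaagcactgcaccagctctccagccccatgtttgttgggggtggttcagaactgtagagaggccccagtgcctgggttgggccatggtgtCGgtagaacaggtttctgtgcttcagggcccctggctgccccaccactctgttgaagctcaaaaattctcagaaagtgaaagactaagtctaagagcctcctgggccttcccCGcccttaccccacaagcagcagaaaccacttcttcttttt
Nox4, chr7:87246399-87246648: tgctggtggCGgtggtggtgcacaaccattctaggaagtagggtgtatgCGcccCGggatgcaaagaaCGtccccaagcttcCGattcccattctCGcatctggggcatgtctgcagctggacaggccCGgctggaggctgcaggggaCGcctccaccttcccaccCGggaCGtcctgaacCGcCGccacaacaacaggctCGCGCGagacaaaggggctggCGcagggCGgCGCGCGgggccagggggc
The Cybb stretch held 1 CG and was 34% G or C, with 3.87% of all 32851 RefSeq windows lower in G and C. Nox4 lay at the other end, with 20 CG and 67.2% G or C, and 86.5% of windows were lower. Cyba (6 CG, 60.0%) and Ncf1 (2 CG, 54.4%) lay between them, and the medians of all windows were 6 CG and 52.4%. The letters GAGGAA, the core bound by PU.1 (Spi1), a transcription factor of myeloid cells known to drive phagocyte oxidase genes, were searched on both strands of the windows from 250 bases before to 50 bases after the start. They occurred in 28.3% of all windows and in 1 of these 4. The match is in Cybb, on the strand opposite to the gene, from the 10th transcribed base on, and is in capitals, as TTCCTC on the gene's strand, in the following 24 bases.
Cybb, chrX:9469301-9469324: tgttttcatTTCCTCatcagaaga
It is a description of letters, not of a bound site, and the windows without it say nothing about the factor.

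In the non-cystic regions the oxidase transcripts were mostly Cyba and Nox4. Genes are compared per kilobase of exon, with all annotated exons of a gene joined. On this scale Cyba stood at 1874 ± 663 CPM per kb, Nox4 at 26.4 ± 8.52 and Cybb at 1.97 ± 0.30 (mean ± SD, n = 3 kidneys). Cybc1, whose product Eros helps the Cybb-Cyba pair to mature, lay between Nox4 and Cybb at 2.57 ± 0.286. In plain CPM its mean was below that of Cybb (10.8 against 11.4), so the order depends on the exon lengths used. Rac2 (1.23), Ncf4 (0.944) and Ncf1 (0.395 CPM per kb) followed, and neighbours among these 3 overlapped over the kidneys, whereas the steps from Cyba to Nox4, to Cybc1, to Cybb and to Rac2 did not overlap.

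In the F4/80-low regions Cyba (1891 CPM per kb) and Nox4 (15.8) still led without overlap. Cybb (4.20), Cybc1 (3.08) and Rac2 (2.79) came next with overlap between neighbours, and Ncf4 (1.80) and Ncf1 (0.893) were lowest. On the same per-length scale, the order below Cyba changed in the F4/80-high regions. Cyba remained first at 917 ± 328 CPM per kb, and Cybb (15.1 ± 5.24), Rac2 (14.1 ± 3.61), Ncf4 (8.11 ± 2.79), Nox4 (6.90 ± 3.76) and Cybc1 (5.11 ± 1.19) followed, with overlap over the 3 kidneys between each pair of neighbours from Cybb to Cybc1. Ncf1 remained last at 2.77 CPM per kb. In plain CPM the mean of Nox4 there (58.5) was below Cybb (87.9) but above Rac2 (43.8), Cybc1 (21.5) and Ncf4 (16.4).

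In F4/80-high against non-cystic regions, 4 of the 6 subunits were called higher and 2 lower. Of all 16034 tested genes, 19.7% were called higher and 19.5% lower, so calls of either direction were common in this comparison. The libraries did not overlap for 4 subunits that were higher and for Nox4, lower, against 14.6% and 12.9% of all genes. In F4/80-high against F4/80-low regions 3 subunits were higher and 1 lower, with 10.3% and 14.0% of all genes, and 4 subunits were higher and 1 lower (Cyba) without overlap, with 7.62% and 9.25% of all genes. In F4/80-low against non-cystic regions 1 subunit was called higher and 0 lower, with 1.51% and 0.0249% of all genes. There, 3 subunits were higher and 0 lower at an unadjusted p below 0.05 by edgeR, and DESeq2 called 2 higher and 0 lower. The libraries of these 2 region types overlapped for every subunit, whereas 1.78% of all genes were higher and 0.399% lower without overlap. The median log2 change over the 6 subunits was 1.06, 2.82 and 1.68 in the low against non-cystic, high against non-cystic and high against low comparisons, beside medians of 0.00, 0.04 and 0.04 over all tested genes. These 3 comparisons share their groups, so their values are not independent of each other.

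**Figure D1:**
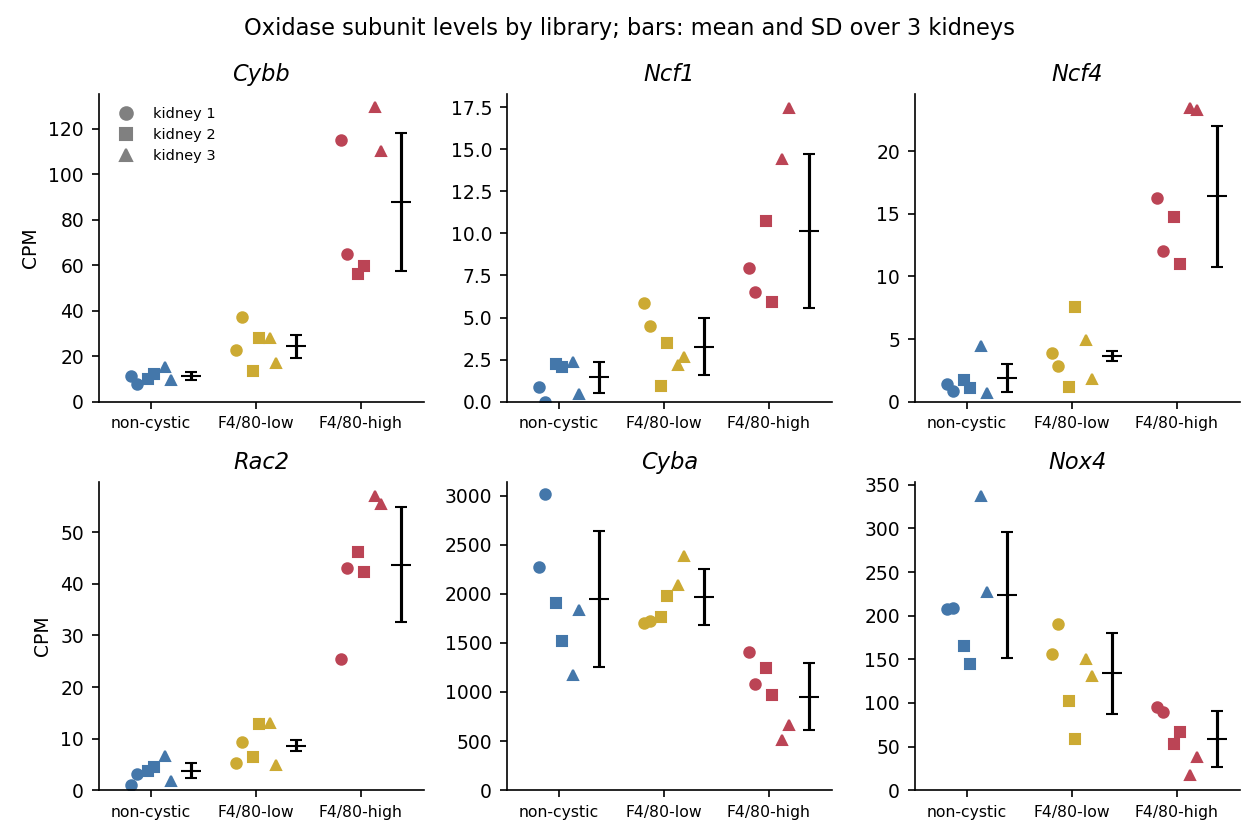
CPM (vertical axes, linear from 0) of the 6 subunits in each of the 18 libraries, by region type, with symbols for kidneys and bars for the mean and SD over 3 kidneys. Cybb, Ncf1, Ncf4 and Rac2 lie higher in all 6 F4/80-high libraries than in any other library, and Nox4 lies lower there than in any non-cystic library.

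Cybb, the catalytic subunit of the phagocyte oxidase, ranged from 7.86 to 15.2 CPM over the 6 non-cystic libraries (median 10.5). In the F4/80-low libraries it ranged from 13.4 to 37.1 (median 25.3) and in the F4/80-high libraries from 56.1 to 129 (median 87.4). The F4/80-high libraries lay above all others, and 5 of 6 F4/80-low libraries lay above every non-cystic one. Cybb rose by a log2 fold change of 2.89 ± 0.24 (SE) from non-cystic to F4/80-high regions (edgeR quasi-likelihood test with Benjamini-Hochberg adjustment over all tested genes, adjusted p = 4.90e-05) and by 1.81 ± 0.23 from F4/80-low to F4/80-high regions (adjusted p = 0.00152), higher in 3 of 3 kidneys each time. From non-cystic to F4/80-low regions the log2 difference was 1.08 ± 0.23 and did not pass (edgeR adjusted p = 0.0560). It passed in 11 of 34 alternative settings, among them without kidney 3 (1.20, adjusted p = 0.0172) and when any 1 of 5 single libraries was left out (non-cystic kidney 2 replicate 2, F4/80-low kidney 2 replicate 1, F4/80-low kidney 3 replicate 2, F4/80-high kidney 2 replicate 1 or F4/80-high kidney 3 replicate 1; log2 1.08 to 1.26, adjusted p 0.0161 to 0.0477).

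The cytosolic subunits were scarcer and had the same order of regions. Rac2, the Rac GTPase of blood cells, ranged from 1.07 to 6.58 CPM (median 3.48) in the non-cystic, 4.92 to 13.0 (median 7.88) in the F4/80-low and 25.4 to 57.0 (median 44.6) in the F4/80-high libraries. Its F4/80-high libraries were apart from the rest, while 3 of 6 F4/80-low libraries lay within the non-cystic range. Rac2 rose by log2 3.54 ± 0.21 in F4/80-high against non-cystic regions (edgeR adjusted p = 1.59e-05) and by 2.31 ± 0.20 against F4/80-low regions (adjusted p = 0.000765). Its F4/80-low level also exceeded the non-cystic level, by 1.23 ± 0.21 (adjusted p = 0.0223), the only subunit called there. That call was lost in 11 of 34 alternatives, including without kidney 1 (1.01, adjusted p = 0.248), without kidney 2 (1.28, 0.122), and without any 1 of 4 libraries (non-cystic kidney 1 replicate 2, non-cystic kidney 3 replicate 2, F4/80-low kidney 2 replicate 2 or F4/80-low kidney 3 replicate 1; 1.01 to 1.36, adjusted p 0.0557 to 0.271).

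Ncf4, whose product p40phox binds phosphatidylinositol 3-phosphate on phagosomes, ranged from 0.682 to 4.47 CPM (median 1.26) in the non-cystic, 1.18 to 7.54 (median 3.36) in the F4/80-low and 11.0 to 23.5 (median 15.5) in the F4/80-high libraries. The non-cystic and F4/80-low ranges overlapped and the F4/80-high range stood apart from both. Ncf4 rose by log2 3.13 ± 0.34 in F4/80-high against non-cystic (edgeR adjusted p = 0.000184) and by 2.09 ± 0.31 against F4/80-low regions (adjusted p = 0.00254), and the F4/80-low against non-cystic difference of 1.04 ± 0.34 did not pass (adjusted p = 0.225). That difference passed without kidney 3 (1.55, edgeR adjusted p = 0.0353).

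Ncf1, the p47phox organiser that carries the activating phosphorylation sites, was the rarest of the 6. One of the non-cystic libraries had 0 counts (kidney 1, replicate 2), and the others reached 2.35 CPM (median of the 6, 1.48). The F4/80-low libraries ranged from 0.941 to 5.85 (median 3.08) and the F4/80-high libraries from 5.91 to 17.4 (median 9.35), above all others. Ncf1 rose by log2 2.75 ± 0.60 in F4/80-high against non-cystic regions (edgeR adjusted p = 0.00658). Against F4/80-low regions the difference was 1.54 ± 0.56 (adjusted p = 0.0765) with no overlap of libraries. It passed in 9 of 34 alternatives, among them without kidney 1 (2.31, adjusted p = 0.0401) and without either non-cystic kidney 1 replicate 2 or F4/80-low kidney 1 replicate 1 (1.60 to 1.68, adjusted p 0.0352 to 0.0443). Kidney 1 had the highest Ncf1 among F4/80-low libraries, and within it F4/80-high exceeded F4/80-low by only log2 0.40, against 1.71 and 2.42 in kidneys 2 and 3. F4/80-low against non-cystic gave 1.20 ± 0.62 (edgeR adjusted p = 0.527) and 0.19 without kidney 1.

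**Figure D2:**
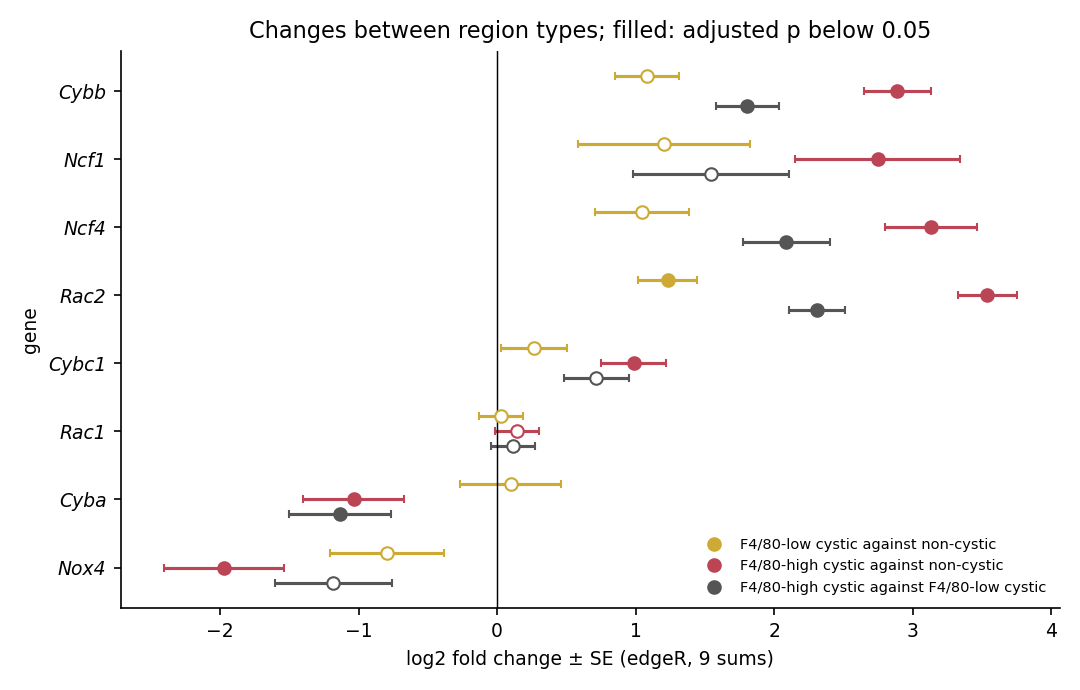
Log2 fold changes with SE (horizontal axis) for the 6 subunits and for Cybc1 and Rac1 in the 3 comparisons of region types, with filled symbols where the edgeR adjusted p was below 0.05. Rac2 is the only filled symbol for F4/80-low against non-cystic regions, Cyba and Nox4 lie left of 0 in both comparisons that involve F4/80-high regions, and Rac1 lies near 0 in every comparison.

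Nox4, the tubular oxidase, ran the other way. It ranged from 145 to 337 CPM (median 209) in non-cystic libraries, from 59.0 to 191 (median 140) in F4/80-low libraries and from 17.5 to 95.9 (median 59.7) in F4/80-high libraries. All F4/80-high libraries lay below all non-cystic ones, and 3 of 6 lay below every F4/80-low library. Nox4 fell by 1.97 ± 0.43 on the log2 scale from non-cystic to F4/80-high regions (edgeR adjusted p = 0.00822), in 3 of 3 kidneys. The size differed between kidneys, with within-kidney log2 changes of -1.25 and -1.39 in kidneys 1 and 2 and -3.50 in kidney 3, and without kidney 3 the fall was -1.33 and still passed (adjusted p = 0.000344). F4/80-low regions lay between, at -0.79 ± 0.41 against non-cystic (edgeR adjusted p = 0.543). F4/80-high regions differed from them by -1.18 ± 0.42 (adjusted p = 0.0758). The latter passed in 8 of 34 alternatives, among them without kidney 3 (-0.74, edgeR adjusted p = 0.0240) and without non-cystic kidney 3 replicate 1, F4/80-low kidney 2 replicate 2 or F4/80-high kidney 3 replicate 1 (-1.29 to -1.06, adjusted p 0.0362 to 0.0466).

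Cyba, the partner of both catalytic subunits, followed Nox4 rather than Cybb in direction in both comparisons that involve F4/80-high regions. Its non-cystic libraries ranged from 1173 to 3013 CPM (median 1869), its F4/80-low libraries from 1698 to 2388 (median 1872) and its F4/80-high libraries from 516 to 1408 (median 1021). Each F4/80-high library was below each F4/80-low library, and 4 of 6 were below each non-cystic library. Cyba fell by 1.03 ± 0.36 on the log2 scale in F4/80-high against non-cystic (edgeR adjusted p = 0.0463) and by 1.13 ± 0.37 against F4/80-low regions (adjusted p = 0.0498), lower in 3 of 3 kidneys both times. Between F4/80-low and non-cystic regions the log2 difference was 0.10 ± 0.36 (adjusted p = 0.962), with kidney 1 at -0.66 and kidneys 2 and 3 at 0.13 and 0.70.

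Both Cyba calls sat close to the threshold. The call against non-cystic regions was lost in 16 of 34 alternatives and the call against F4/80-low regions in 21 of 34, with the sign kept. Leaving out any 1 of 9 libraries ended the first (replicate 2 of each F4/80-high kidney, replicate 2 of non-cystic kidneys 1 and 3, replicate 1 of non-cystic kidney 2, F4/80-low kidney 1 replicate 2, and replicate 1 of F4/80-low kidneys 2 and 3), with log2 changes of -1.08 to -0.95 and adjusted p of 0.0505 to 0.0845. Any 1 of 11 libraries ended the second, with changes of -1.18 to -1.06 and adjusted p of 0.0505 to 0.0904. These were the same F4/80-high replicates 2, both libraries of F4/80-low kidney 2 and of non-cystic kidney 3, F4/80-low kidney 1 replicate 2, F4/80-low kidney 3 replicate 1, non-cystic kidney 1 replicate 1 and non-cystic kidney 2 replicate 1. Without kidney 1 or 2 the change against non-cystic regions was -0.97 and -1.24 (edgeR adjusted p = 0.191 and 0.144). Without kidney 1, 2 or 3 the change against F4/80-low regions was -1.40, -1.33 and -0.67 (edgeR adjusted p = 0.114, 0.169 and 0.122). With total counts as the only scaling the change against non-cystic regions was -0.43 (adjusted p = 0.158). That scaling moved the median of all tested genes from 0.04 to 0.65, so relative to the median gene Cyba was lower under both scalings.

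Ratios within libraries showed how the mixture of subunits shifted. Per unit of exon length, Nox4 over Cybb was 13.1 in the non-cystic group (geometric mean over 3 kidneys), 3.65 in the F4/80-low and 0.422 in the F4/80-high group. Over single libraries this ratio ran from 8.20 to 18.3, from 1.45 to 5.23 and from 0.0925 to 0.946, so the 3 region types did not overlap. The size of the ratio, but not the order of libraries, depends on the exon lengths used. In plain CPM, Nox4 exceeded Cybb in F4/80-high kidney 1 replicate 2 (89.3 against 64.7) and kidney 2 replicate 2 (67.0 against 59.7). For Cyba over Cybb the ratio was 921, 453 and 60.0, with library ranges of 433 to 2144, 261 to 779 and 22.3 to 124; the F4/80-high range stood apart and the other two overlapped. Within the phagocyte set the proportions moved less. Cybb over Ncf4 was 2.30, 2.31 and 1.85, and Cybb over Ncf1 was 6.05, 5.04 and 5.56, with overlapping libraries in all 3 region types (the non-cystic library without an Ncf1 count gives no ratio). Rac2 over Cybb was 0.593, 0.669 and 0.950, also overlapping.

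Cyba over Nox4 was 70.6, 124 and 142, with library ranges of 28.4 to 117, 73.8 to 273 and 98.4 to 241 that overlapped. In every library the shared subunit was therefore counted at many times the level of either catalytic subunit on this scale. Rac1, the Rac GTPase of most cell types, was counted at 78.4 ± 1.97, 80.0 ± 3.31 and 86.9 ± 12.6 CPM in the 3 region types. Its log2 change was 0.14 ± 0.16 in F4/80-high against non-cystic regions (edgeR adjusted p = 0.509). Rac1 over Rac2 per length went from 15.0 to 6.42 to 1.39, so that Rac2 came near the level of Rac1 in F4/80-high regions. Rac1 shares exon sequence with Daglb on the other strand.

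**Figure D3:**
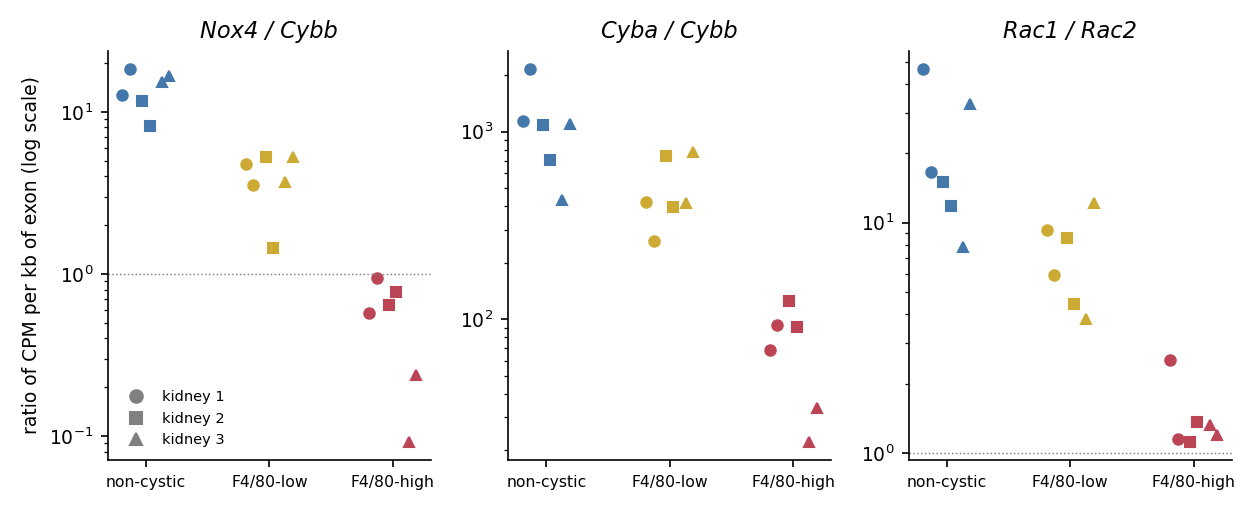
Ratios of CPM per kb of exon (vertical axes, log scale) in each library for Nox4 over Cybb, Cyba over Cybb and Rac1 over Rac2, by region type, with symbols for kidneys and a dotted line at a ratio of 1 where it falls in range. On this per-length scale Nox4 over Cybb is above 1 in all non-cystic and F4/80-low libraries and below 1 in all F4/80-high libraries. The place of 1 depends on the exon lengths used.

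The regions were chosen on F4/80, so the change of Adgre1 (2.56 ± 0.962, 6.55 ± 1.65 and 53.9 ± 14.9 CPM) is a measure of that choice and not a result. Set against it within each kidney, the changes of the phagocyte subunits were smaller. From non-cystic to F4/80-high regions, the log2 change minus that of Adgre1 was -1.33 ± 0.26 for Cybb, -1.66 ± 0.30 for Ncf1, -1.31 ± 0.73 for Ncf4 and -0.77 ± 0.60 for Rac2 (mean ± SD, 3 kidneys), negative in 3 of 3 kidneys for each. From non-cystic to F4/80-low regions the same differences were -0.17 ± 0.25, -0.23 ± 1.21, -0.35 ± 0.60 and -0.08 ± 0.18, each less than its SD. These differences are descriptions with no test. For these log2 changes 0.5 CPM was added before the logs, which shrinks the changes of rarer genes more. Ncf1 was rarer than Adgre1 in non-cystic regions (mean 1.45 against 2.56 CPM), so part of its shortfall comes from this addition. By edgeR, the log2 changes from non-cystic to F4/80-high regions were 4.42 for Adgre1 and 2.89, 2.75, 3.13 and 3.54 for Cybb, Ncf1, Ncf4 and Rac2.

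**Figure D4:**
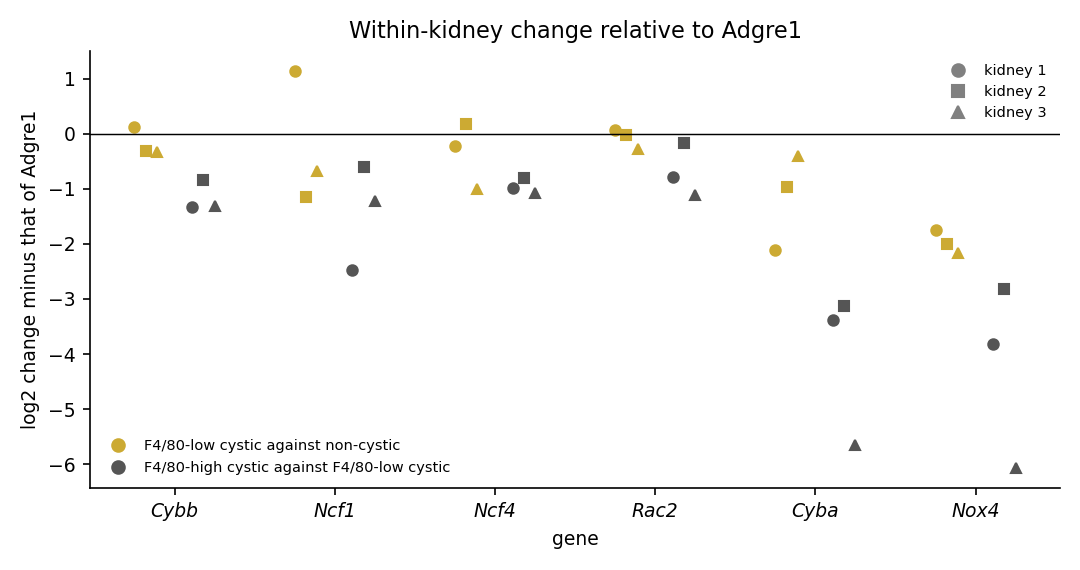
Log2 change within each kidney minus that of Adgre1 (vertical axis) for Cybb, Ncf1, Ncf4, Rac2, Cyba and Nox4, for the step from non-cystic to F4/80-low and the step from there to F4/80-high regions, with symbols for kidneys. Phagocyte subunits scatter around 0 in the first comparison and lie below 0 in all kidneys in the second.

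Markers of several other cell types differed between the regions too. The summed CPM of 12 macrophage genes was 85.8 to 142 in the non-cystic, 181 to 543 in the F4/80-low and 771 to 2508 in the F4/80-high libraries, with none of the 12 at 0. Summed markers of monocytes (6 genes; 29.5 to 45.9, 55.5 to 229 and 347 to 623) and of fibroblasts (7 genes; 58.1 to 97.1, 192 to 559 and 682 to 2000) had the same order of regions. B cell markers (5 genes; 5.50 to 8.46, 3.73 to 10.6 and 12.2 to 32.2) and T and NK cell markers (8 genes; 5.0 to 14.9, 7.53 to 30.2 and 39.2 to 89.2) were highest in F4/80-high libraries. Smooth muscle and myofibroblast markers were 11.7 to 101, 13.0 to 168 and 109 to 491 CPM (4 genes, medians 54.3, 78.3 and 202). Endothelial markers (7 genes) were 198 to 313, 230 to 442 and 141 to 519 CPM, ranges that overlapped. The sum of 11 neutrophil genes, another cell rich in this oxidase, was 0.455 to 12.9, 0.447 to 11.0 and 4.13 to 39.1 CPM. Its granule genes Mpo, Elane, Ngp and Camp were at 0 in all non-cystic libraries, and Ngp and Camp were at 0 in all F4/80-low libraries. They were near 0 elsewhere too. Mpo and Elane had 1 count each in the F4/80-low libraries. The 6 F4/80-high libraries together held 4, 1, 5 and 1 counts of Mpo, Elane, Ngp and Camp, so these genes do not separate the regions. Other genes of the list were counted in the lower groups. S100a8 had 118 counts in the 6 non-cystic and 43 in the 6 F4/80-low libraries, and Ltf had 33 and 55. Of the 5 neutrophil genes tested by edgeR, S100a8 and Csf3r were higher in F4/80-high than in non-cystic regions, and these, S100a9 and Retnlg were higher than in F4/80-low regions, with 0 lower. Over all tested genes 19.7% and 10.3% were higher in these comparisons. Between F4/80-low and non-cystic regions edgeR called 0 of the neutrophil genes, and 1 was lower by DESeq2 and at an unadjusted p below 0.05. In bulk tissue, more or fewer cells of a type and more or less RNA per cell cannot be told apart, and the part of any of these cells in the subunit changes was not tested. Cybb per 1000 macrophage CPM was 85.3 to 171 in the non-cystic, 51.6 to 128 in the F4/80-low and 41.7 to 149 in the F4/80-high libraries. Of the 6 F4/80-high libraries, 5 (41.7 to 54.6) lay below every non-cystic library, and kidney 1 replicate 1 (149) alone made these ranges overlap. The highest non-cystic value, 171, was that of kidney 3 replicate 1, and the next was 95.3. The makeup of the macrophage sum differed between regions. C1qa, C1qb and C1qc led it in F4/80-high regions (mean 256, 570 and 248 CPM, against 12.2, 26.2 and 9.29 in non-cystic). In non-cystic regions Mertk (26.9 CPM) and C1qb (26.2) were about level at the top of it. Mertk hardly moved, at 27.9 CPM in F4/80-high regions. The ratio therefore depends on these genes too and is not a level of Cybb per macrophage.

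Tubule markers were lower in F4/80-high libraries as well. The 12 proximal tubule genes summed to 10717 to 18517 CPM in the non-cystic, 4850 to 11606 in the F4/80-low and 160 to 2547 in the F4/80-high libraries, with no gene at 0. The lowest sums, 160 and 528, were in the libraries of F4/80-high kidney 3, which also had the lowest Nox4 (17.5 and 38.3 CPM) and the lowest Cyba (516 and 659 CPM) of all 18. Among F4/80-low libraries the lowest sum, 4850 in kidney 2 replicate 2, went with the lowest Nox4 there (59.0 CPM) but not with a low Cyba (1977 CPM). Nox4 per 1000 proximal CPM was 11.3 to 31.5 in the non-cystic, 9.82 to 16.7 in the F4/80-low and 20.6 to 109 in the F4/80-high libraries, and the ranges of the first and last overlap. The value of 31.5 was that of non-cystic kidney 3 replicate 1 alone; the next was 17.1, below every F4/80-high library. Cyba per 1000 proximal CPM was 109 to 165, 151 to 408 and 490 to 3219. Here 408 was F4/80-low kidney 2 replicate 2 (the next was 217) and 3219 was F4/80-high kidney 3 replicate 1 (the next was 1249).

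Other tubule segments differed too. Summed distal tubule markers (4 genes) were 547 to 2205 CPM in the non-cystic, 28.6 to 1157 in the F4/80-low and 60.1 to 798 in the F4/80-high libraries, with medians of 1709, 433 and 105. Thick ascending limb markers (4 genes) were 533 to 2114, 1201 to 5374 and 199 to 1394, and collecting duct markers (4 genes) 78.7 to 231, 9.99 to 324 and 13.4 to 182. No gene of these lists was at 0 throughout a region type. In F4/80-high against non-cystic regions edgeR called 11 of 12 proximal, 3 of 4 distal, 2 of 4 thick ascending limb and 1 of 4 collecting duct genes lower. Against F4/80-low regions the numbers were 10 of 12, 2 of 4, 3 of 4 and 1 of 4. Lower calls made up 19.5% and 14.0% of all tested genes in these comparisons. The part of any tubule segment's content in the fall of Nox4 and Cyba was not tested. The share of counts from mitochondrial genes was 10.6 to 15.4% in the non-cystic, 7.71 to 11.1% in the F4/80-low and 1.49 to 4.06% in the F4/80-high libraries, and its part was not tested either.

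**Figure D5:**
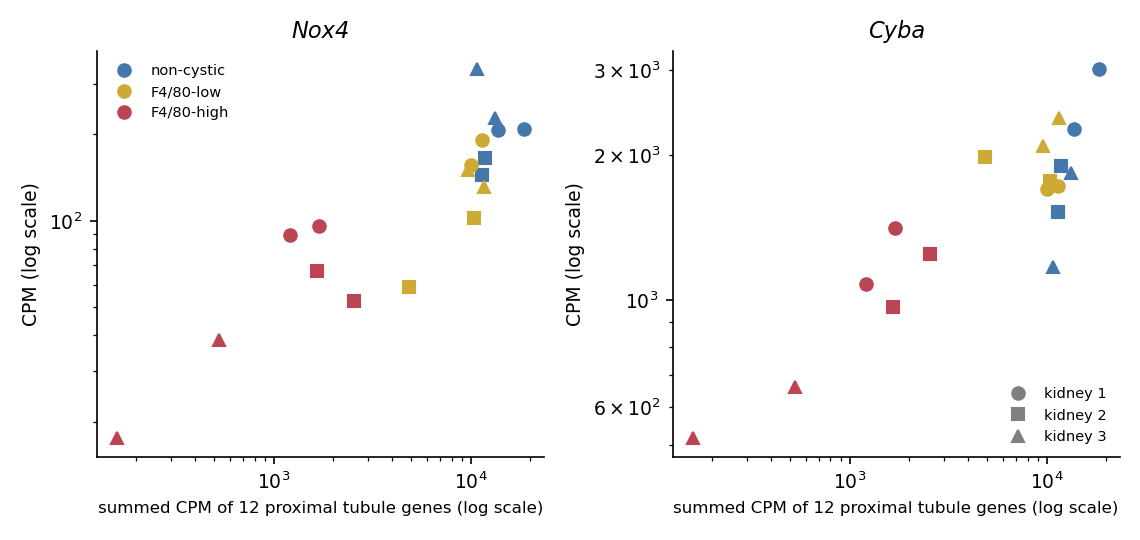
Nox4 and Cyba (vertical axes, CPM, log scale) against the summed CPM of 12 proximal tubule genes (horizontal axis, log scale) in the 18 libraries, coloured by region type with symbols for kidneys. The libraries of F4/80-high kidney 3 lie lowest on both axes in both panels.

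The gene with the pattern most like Cybb over the 18 libraries, among 8584 genes searched, was Cd53 (Pearson r of log2 CPM 0.983), a tetraspanin of leukocytes. Marcks (0.981), Mpeg1 (0.981), which encodes the phagocyte pore protein perforin-2, Ptprc (0.981), the common leukocyte antigen CD45, and Ctss (0.980), a lysosomal protease of antigen-presenting cells, followed. For Nox4 they were Fut9 (0.960), a fucosyltransferase, Igsf11 (0.958), Slc6a19 (0.957), the neutral amino acid transporter of the proximal brush border, Slc22a5 (0.956), the carnitine transporter, and Glb1l (0.955). The libraries share kidneys and region types, and these values are descriptions. With Cybb, r was 0.947 for Ncf4, 0.923 for Rac2, 0.882 for Ncf1, -0.777 for Cyba and -0.778 for Nox4.

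Of 12 other oxidase genes, 6 passed the filter. In F4/80-high against non-cystic regions 3 were higher and 0 lower (also 3 and 0 at an unadjusted p below 0.05 by edgeR and by DESeq2), with a median log2 change of 0.64. Against F4/80-low regions 1 was higher and 0 lower (median 0.54), and by each of those rules 2 were higher and 0 lower. Among all tested genes edgeR called 19.7% higher and 19.5% lower against non-cystic regions, and 10.3% and 14.0% against F4/80-low regions. Over the alternatives the higher calls numbered 0 (without kidney 1) to 5 (total counts as the only scaling) against non-cystic regions. Against F4/80-low regions they numbered 0 (without kidney 1, without kidney 2, or with biological replicate 2 only) to 4 (total counts). Cybc1 rose by log2 0.99 ± 0.24 against non-cystic regions (edgeR adjusted p = 0.00875), and its 0.72 ± 0.23 against F4/80-low regions did not pass (adjusted p = 0.0506). It overlaps Hexdc on the other strand. Noxo1, the organiser of the epithelial oxidase NOX1, rose by 1.76 ± 0.44 against non-cystic (edgeR adjusted p = 0.0103) and 1.63 ± 0.42 against F4/80-low regions (adjusted p = 0.0222), from low levels (0.355 to 2.05 CPM in non-cystic and 2.40 to 6.19 in F4/80-high libraries) and with exon overlap with Tbl3. Rac3 rose by 1.87 ± 0.59 against non-cystic regions (adjusted p = 0.0297), also from low levels.

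Nox1, with -0.17 ± 0.37, and Rap1a, a GTPase that copurifies with the phagocyte core, with 0.30 ± 0.18, did not pass in the same comparison (edgeR adjusted p = 0.747 and 0.222). Nox3, Noxa1, Duox1, Duox2, Duoxa1 and Duoxa2 were below the filter. In F4/80-low against non-cystic regions 0 of the 6 were called in either direction by edgeR or by DESeq2, and 0 reached an unadjusted p below 0.05 by edgeR.

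Genes listed for the activation or support of the phagocyte oxidase were mostly higher in F4/80-high regions. Of 12, 9 were higher and 0 lower in F4/80-high against non-cystic regions (median log2 2.43), and 8 were higher and 0 lower against F4/80-low regions (median 1.73). Beside these stand 19.7% and 10.3% of all tested genes called higher. Over the alternatives the higher calls numbered 7 to 12 against non-cystic regions and 1 to 10 against F4/80-low regions, with 1 left when kidney 1 was left out. Arhgdib (2.67 ± 0.21, edgeR adjusted p = 4.06e-05, overlapping Pde6h), Prkcb, a kinase of p47phox (3.28 ± 0.38, 0.000285), Dock2, a Rac exchange factor (3.12 ± 0.37, 0.000321, overlapping 4930403D09Rik), and Vav1, another (2.89 ± 0.43, 0.000932), had the smallest p against non-cystic regions. In F4/80-low against non-cystic regions 0 were called by edgeR, 5 were higher and 0 lower at an unadjusted p below 0.05, and DESeq2 called 3 higher.

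Of 5 genes listed as partners of Nox4 or as organisers, 2 were higher and 1 lower in F4/80-high against non-cystic regions and likewise against F4/80-low regions. The other 2 were called in neither. Of all tested genes, 19.7% were higher and 19.5% lower in the first comparison, and 10.3% and 14.0% in the second. A count of 1 lower in 5 is thus near the share of all genes. Sh3pxd2a and Sh3pxd2b, which encode the podosome scaffolds Tks5 and Tks4, rose by log2 2.15 ± 0.30 and 2.32 ± 0.35 against non-cystic regions (edgeR adjusted p = 0.000687 and 0.000949). Poldip2, whose product associates with p22phox and raises NOX4 activity, fell by 1.13 ± 0.17 (adjusted p = 0.000984), the direction of Nox4 and Cyba.

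Of 6 tested transcription factors from a list of 7 known to drive phagocyte oxidase genes, 5 were higher in F4/80-high against non-cystic regions and 3 against F4/80-low regions, with 0 lower in either by edgeR, by DESeq2 or at an unadjusted p below 0.05. For all tested genes the shares called higher by edgeR were 19.7% and 10.3%. Against non-cystic regions Spi1 (PU.1) rose by log2 3.19 ± 0.57 (edgeR adjusted p = 0.00293), Irf1 by 2.17 ± 0.29 (0.000500), Irf8 by 1.65 ± 0.27 (0.00134), Cebpa by 0.96 ± 0.30 (0.0275) and Elf1 by 0.69 ± 0.17 (0.0101). Cebpb, at -0.05 ± 0.68, did not pass (adjusted p = 0.963), and Cebpe was below the filter. The 3 calls against F4/80-low regions became 0 without kidney 2 and without its F4/80-low replicate 1 library. Irf1 was the only one called in F4/80-low against non-cystic regions (1.53 ± 0.28, edgeR adjusted p = 0.0307), where 1.51% of all tested genes were higher.

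Enzymes that remove superoxide and hydrogen peroxide fell in F4/80-high regions, with 10 of 12 lower and 0 higher against non-cystic (median log2 -1.61) and 9 of 12 lower and 0 higher against F4/80-low regions (median -1.45). The shares of all tested genes called lower were 19.5% and 14.0%. Over the alternatives 4 to 11 were lower against non-cystic and 2 to 11 against F4/80-low regions, with 4 and 2 when kidney 1 was left out. Neither edgeR at an unadjusted p below 0.05 nor DESeq2 put any of them higher. Catalase (Cat, -2.47 ± 0.34, edgeR adjusted p = 0.000575), the cytosolic and mitochondrial superoxide dismutases Sod1 (-1.72 ± 0.25, 0.000809) and Sod2 (-2.03 ± 0.32, 0.00123), and mitochondrial Prdx3 (-1.26 ± 0.23, 0.00237) had the smallest p against non-cystic regions. With total counts as the only scaling 8 were lower in each comparison, and 1 was higher against F4/80-low regions. In F4/80-low against non-cystic regions 0 were called by either tool, and 0 reached an unadjusted p below 0.05 by edgeR. The proximal tubule markers given above were lowest in the same group of libraries, and their part in the fall was not tested.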

How the data were processed

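Counts per gene and library (18 libraries) were used as deposited: raw counts by the authors, with no normalization. The submitters' processing notes name GRCm38 (mm10), HTSeq 0.11.0, fastp 0.20.1 and FastQC 0.11.9, with no role for any of them; the labels name a library kit that does not mark strand, and aligner, annotation and the strand option of the counting were not given in the sources used here. Symbols, exon lengths and coordinates came from GENCODE M21. Library totals were 5366651 to 9188813 counts, so 1 count is 0.0923 to 0.227 CPM, and the 0 of Ncf1 allows up to 3 counts (counting error only). Libraries from one kidney's region type (2 each) were added up, giving 9 sums. edgeR 4.0.16 (R 4.3.3; TMM, filterByExpr, robust quasi-likelihood fit) modelled region type and kidney, with the kidney as block because the same kidney gave all 3 region types; deviations of the sums correlated at -0.203 to 0.361 within kidneys. Benjamini-Hochberg adjustment ran over all 16034 tested genes, with calls below 0.05. SE is the log2 fold change over the root of F. Per-kidney log2 changes used log2(CPM + 0.5). Alternatives, 34 in all, covered scaling, filter, DESeq2 1.42.0, limma 3.58.1 (voom), blocks, subsets and left-out kidneys or libraries. The scripts were tested on simulated counts. The members and gene lists were chosen with earlier results of these data known. Named were all members, all other oxidase genes and listed transcription factors, and up to 4 called genes with the smallest p per further list. Some cell marker genes were also named, to show what a sum held. Some genes of these lists are not reported here.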

Additional observations from a re-analysis of the deposited data

Results flagged for a closer look

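Of 18 pairs of a subunit and a region type, 1 had a library far from the other 5. Ncf4 stood at 4.47 CPM in non-cystic kidney 3 replicate 1, and its gap to the next library was 0.726 of the range of the 6 non-cystic libraries. Chance flags about 1 in 20 such groups. The same library had the highest Cybb (15.2 CPM), Ncf1 (2.35 CPM), Rac2 (6.58 CPM) and Nox4 (337 CPM) and the lowest Cyba (1173 CPM) of the non-cystic group.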

How the results depend on the processing

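Cybb, Ncf1, Ncf4, Rac2 and Nox4 kept their direction and passed the threshold in F4/80-high against non-cystic regions in all 34 alternatives, with log2 changes of 2.73 to 3.50, 2.48 to 3.38, 2.93 to 4.10, 3.38 to 4.14 and -2.36 to -1.33. The number of subunits called higher in F4/80-low against non-cystic regions, 1 as reported, became 2 with no filter, with DESeq2's Wald test, with 18 libraries and a kidney block, and with the biological replicate number as a further block. It became 0 with kidney as a random effect (voom), with no kidney block and with the libraries of biological replicate 1 or 2 only. Leaving out 1 kidney or library gave 0 to 3. Subunits called lower in F4/80-high against non-cystic regions, 2 as reported, became 1 with DESeq2 size factors, upper quartile factors, total counts, the stricter filter and biological replicate 1 only, and 1 to 2 when a kidney or library was left out. Against F4/80-low regions the 1 lower call became 0 with those 3 scalings, the stricter filter, no kidney block, only the 2 region types compared and biological replicate 1 only, and 2 with DESeq2's Wald test, 18 libraries (with the kidney block, also with the replicate number as a block) and voom. Leaving out 1 kidney or library gave 0 to 2. Cyba in F4/80-low against non-cystic regions changed sign with biological replicate 2 only (-0.0115), and leaving out 1 kidney or library gave -0.27 to 0.44. The causes were not tested.

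Genes called in all numbered 246 in F4/80-low against non-cystic regions (23 to 675 over the alternatives), 6289 in F4/80-high against non-cystic (3359 to 8071) and 3895 against F4/80-low regions (988 to 5922). Of the calls in F4/80-high against non-cystic regions 50.2% were higher, and 81.9% with total counts; against F4/80-low regions these were 42.3% and 79.0%, with 53.1% for upper quartile factors. Upper quartile factors moved the median gene in these comparisons to 0.16 and total counts moved it to 0.65 and 0.52. Deviations of libraries with the same biological replicate number correlated at -0.105 to 0.132 between region types of a kidney. Such weak values cannot show whether the numbers stand for a shared unit. The counts of Ncf1, Ncf4 and Rac2 in non-cystic libraries were low, which limits their fold changes.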
